A study of Homo sapiens with 2 samples.

Results

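The regions described here are the 4927 KDM1B peaks on human chromosomes 4, 13 and 18, out of 78536 peaks in the deposited list (6.27%). They were taken by chromosome name alone, which gave 2238 peaks on chromosome 4, 1576 on chromosome 13 and 1113 on chromosome 18. The peaks come from 1 anti-FLAG chromatin immunoprecipitation (ChIP) library set against 1 input library. Both came from the established human line MDA-MB-231 (triple-negative breast cancer). The cells carried 3xFLAG KDM1B, stably expressed from the retroviral vector pOZ, so the input cells made the tagged protein too, and a ChIP from cells without the tag was not analysed here. Each group held 1 library, and no value below has a replicate error or a test. Each peak carries the authors' log2 ratio of ChIP over input, which is used here only to describe and rank peaks, and read depth is unknown. A peak list holds no expression values, so the cell type on the label was not checked against markers.

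KDM1B, also called LSD2, is a flavin-dependent demethylase of lysine in the tail of histone H3 and a relative of KDM1A. It is known to act at promoters and also inside transcribed genes, where it associates with elongating RNA polymerase and with histone methyltransferases. Gene-poor chromosomes of human cells are known to lie mostly near the nuclear periphery, to replicate late over long stretches, and to carry genes in islands between long gene deserts.

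The 3 chromosomes were the 3 poorest in protein-coding genes among chromosomes 1 to 22 and X. Chromosome 18 had 3.34 coding genes per Mb of its annotated span, chromosome 13 had 3.49 and chromosome 4 had 4.01, against 7.12 over the other 20 chromosomes together. The label of the set therefore held in the annotation used here.

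Promoter sequences are shown first, because start sites lay both inside peaks and deep in stretches without any. For each chromosome, the start window whose surrounding peak had the highest log2 ratio is given, then the window of the longest gene without a peak in or within 5 kb for which the RefSeq promoter table (GRCh38.p14) had an entry. Each window runs from 250 bases before to 50 bases after a start, is written 5′ to 3′ on the gene's strand, and has CG dinucleotides (CpG) in capitals. NKX6-1, a homeodomain transcription factor, starts on the minus strand of chromosome 4 (chr4:84499243-84499542) inside a peak of 541 bp with a log2 ratio of 4.86. The RASA3 window on chromosome 13 (chr13:114077906-114078205, minus strand) is an internal start, 54.7 kb inside the gene, within a peak of 1000 bp at 4.51. ATP9B, which encodes a P4-type ATPase, starts on the plus strand of chromosome 18 (chr18:79069144-79069443) inside a peak of 637 bp at 5.65. These windows were picked for the high ratios of their peaks, and the part of low input counts in those ratios was not tested.
NKX6-1: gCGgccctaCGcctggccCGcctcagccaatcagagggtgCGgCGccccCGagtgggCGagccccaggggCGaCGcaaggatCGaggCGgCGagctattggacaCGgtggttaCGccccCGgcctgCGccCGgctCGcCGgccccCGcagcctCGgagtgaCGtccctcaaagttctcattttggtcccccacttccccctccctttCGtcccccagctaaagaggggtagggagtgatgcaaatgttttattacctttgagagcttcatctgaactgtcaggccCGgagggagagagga
RASA3: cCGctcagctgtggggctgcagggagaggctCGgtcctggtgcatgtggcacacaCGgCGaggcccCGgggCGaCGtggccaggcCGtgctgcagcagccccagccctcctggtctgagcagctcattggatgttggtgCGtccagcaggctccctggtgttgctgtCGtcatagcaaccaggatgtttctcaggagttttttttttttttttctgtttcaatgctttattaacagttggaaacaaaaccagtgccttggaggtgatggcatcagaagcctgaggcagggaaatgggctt
ATP9B: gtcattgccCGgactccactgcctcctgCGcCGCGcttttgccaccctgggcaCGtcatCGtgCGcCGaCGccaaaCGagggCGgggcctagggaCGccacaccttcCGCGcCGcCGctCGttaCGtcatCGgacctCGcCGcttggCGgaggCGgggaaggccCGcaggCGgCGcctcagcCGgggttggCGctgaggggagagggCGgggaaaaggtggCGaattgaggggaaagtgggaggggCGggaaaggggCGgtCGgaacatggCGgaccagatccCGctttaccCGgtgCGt
The windows without a peak belong to GALNTL6 (chr4:171813154-171813453), NBEA (chr13:34942020-34942319) and DCC (chr18:52339947-52340246), all on the plus strand. Their nearest peaks were 1398 kb, 757 kb and 1140 kb away. NBEA has 1 further start window in the table.
GALNTL6: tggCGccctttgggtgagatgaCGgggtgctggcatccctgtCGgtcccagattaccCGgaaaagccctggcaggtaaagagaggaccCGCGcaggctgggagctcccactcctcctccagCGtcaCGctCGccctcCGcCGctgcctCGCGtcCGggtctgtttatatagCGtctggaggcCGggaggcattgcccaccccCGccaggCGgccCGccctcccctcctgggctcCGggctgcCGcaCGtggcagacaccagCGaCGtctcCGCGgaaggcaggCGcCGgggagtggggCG
NBEA: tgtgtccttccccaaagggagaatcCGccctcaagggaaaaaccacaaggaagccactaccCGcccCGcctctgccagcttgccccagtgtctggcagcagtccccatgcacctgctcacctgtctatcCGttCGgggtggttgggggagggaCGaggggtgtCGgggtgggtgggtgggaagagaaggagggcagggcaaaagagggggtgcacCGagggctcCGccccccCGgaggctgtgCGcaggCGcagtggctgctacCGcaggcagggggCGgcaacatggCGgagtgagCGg
DCC: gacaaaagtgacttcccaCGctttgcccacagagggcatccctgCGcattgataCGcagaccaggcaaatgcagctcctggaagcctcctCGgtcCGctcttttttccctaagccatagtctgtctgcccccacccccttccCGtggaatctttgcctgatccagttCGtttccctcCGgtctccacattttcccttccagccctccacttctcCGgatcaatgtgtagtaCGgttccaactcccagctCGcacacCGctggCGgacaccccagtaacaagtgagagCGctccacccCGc
CpG content alone did not separate these 6 windows. NKX6-1 held 24 CpG, RASA3 10 and ATP9B 37, while GALNTL6 held 29, NBEA 16 and DCC 15. Of the 1766 start windows of coding genes on the 3 chromosomes, 299 (16.9%) lay wholly inside a peak, against 20.9% over all chromosomes. Windows wholly inside a peak had a median of 31 CpG (quartiles 24 and 38), and the 1313 windows that no peak touched had 16 (quartiles 4 and 29). On the other chromosomes the medians were 30 and 15, so the difference was of the same size there. Several windows can belong to 1 gene, and windows of 1 gene are not independent.

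Peaks were sparse on all 3 chromosomes. Chromosome 4 had 11.8 peaks per Mb (exact Poisson 95% interval 11.3 to 12.3), chromosome 13 had 16.4 (15.6 to 17.2) and chromosome 18 had 13.9 (13.1 to 14.7). The other 20 chromosomes together had 28.4 (28.2 to 28.6). These intervals cover counting error only, and neighbouring peaks are not independent. The copy number of these chromosomes in the line and the extent of assembly gaps were not analysed here, and both enter a count per Mb of span. From the lowest up, chromosomes 4, 18 and 13 stood at places 2, 3 and 6 of 23, with X lowest at 7.06 and chromosome 19 highest at 79.3. Over the 23 chromosomes peak density went with coding-gene density (Pearson r = 0.90, Spearman rank correlation 0.85, a description of chromosomes that share the same libraries).

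**Figure D1:**
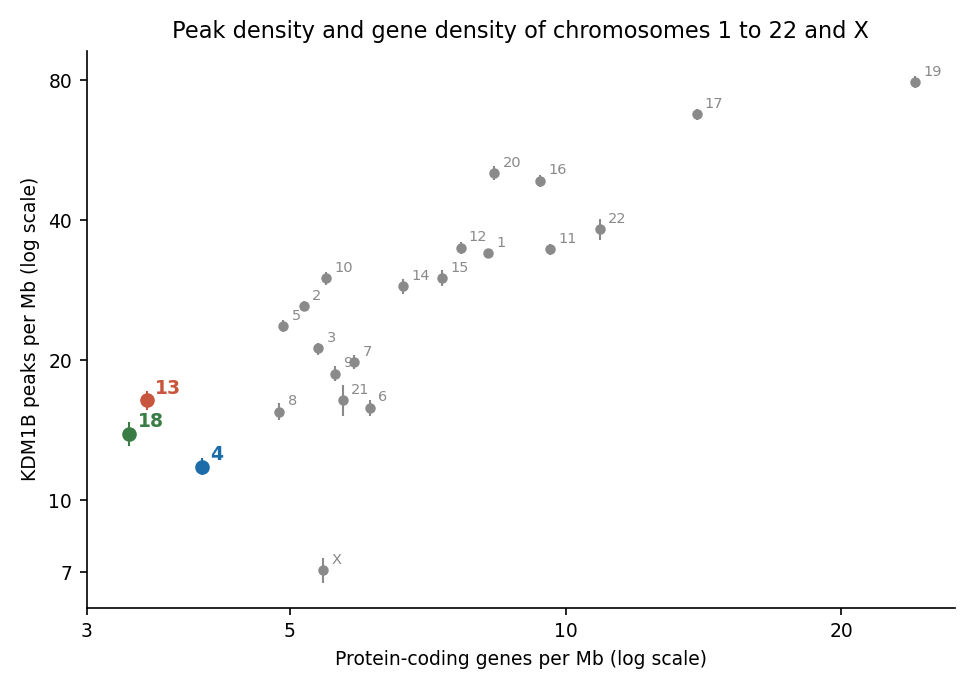
KDM1B peaks per Mb against protein-coding genes per Mb for chromosomes 1 to 22 and X, both axes on a log scale, 1 point per chromosome with its exact Poisson 95% interval. Chromosomes 4, 13 and 18 (coloured) lie at the left with 4.01, 3.49 and 3.34 genes per Mb and 11.8, 16.4 and 13.9 peaks per Mb, and X has fewer peaks at more genes.

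Per gene, the picture differed between the 3 chromosomes. Chromosome 13 carried 4.69 peaks per coding gene and chromosome 18 carried 4.15, against 3.99 on the other chromosomes together, while chromosome 4 carried 2.93. In this order chromosome 4 stood at place 4 from the bottom and chromosome 13 at place 17 of 23. Per Mb of sequence inside coding genes, all 3 were lower than the others, with 25.7 peaks on chromosome 4, 36.3 on chromosome 13 and 30.6 on chromosome 18 against 51.9. Coding genes were also longer here, with a median of 45.6 kb against 23.4 kb. A count per gene and a count per length therefore rank chromosomes 13 and 18 differently.

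Windows of 1 Mb with equal numbers of coding genes were then set side by side. Windows without any coding gene had a median of 1 peak on the 3 chromosomes (82 windows) and of 0 on the others (358 windows). With 1 or 2 genes the median was 2 in both, and with 3 to 5 genes it was 10 in both. The medians parted in richer windows. With 6 to 10 genes the median was 21 (quartiles 11 and 37.5, 71 windows) against 29 (15 and 49, 577 windows), and with 11 to 20 genes 27 (21 windows) against 58 (349 windows). The quartile ranges overlapped in both classes. Within the 6 to 10 class, chromosome 4 had a median of 18.5, chromosome 13 of 27.5 and chromosome 18 of 34.

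**Figure D2:**
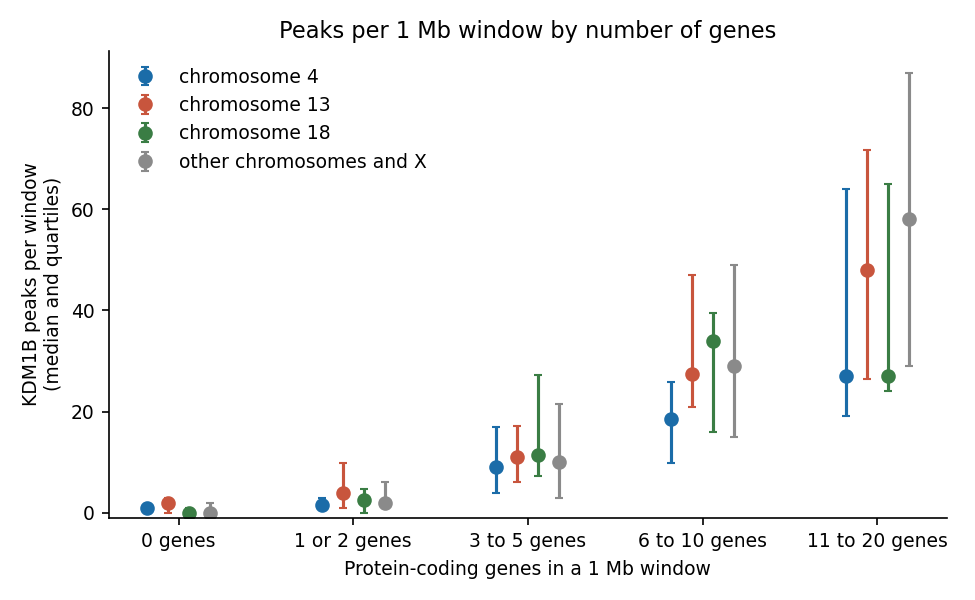
KDM1B peaks per 1 Mb window (median as a point, quartiles as bars) by the number of protein-coding genes in the window, for chromosomes 4, 13 and 18 each and for the other chromosomes with X. The groups lie close together up to 5 genes per window. At 11 to 20 genes chromosomes 4 (12 windows) and 18 (3 windows) have a median of 27 and chromosome 13 (6 windows) of 48, against 58 elsewhere (349 windows).

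Most peaks of the 3 chromosomes lay inside genes, in shares close to those of the other chromosomes. Gene bodies held 3683 peaks or 74.8% (exact Clopper-Pearson 95% interval 73.5 to 76.0%), and 642 or 13% (12.1 to 14.0%) lay within 1 kb of a gene end. The remaining 602 or 12.2% (11.3 to 13.2%) were intergenic. On the other chromosomes these shares were 73.4, 14.7 and 11.9%. Without the peaks at whole multiples of a common step, described below, the intergenic shares were 10.6% here and 11% elsewhere, so the order of these shares turned. Intergenic sequence made up 48.4% of the bases of the 3 chromosomes and 42.9% of the others, and the density there was 3.39 peaks per Mb against 7.86. Gene bodies had 20.9 per Mb against 39.8, and gene ends 50.6 against 88.9. The density was thus lower in each of the 3 classes. Chromosome 13 had the highest intergenic density of the 3, with 4.57 per Mb against 2.96 on both of the others.

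**Figure D3:**
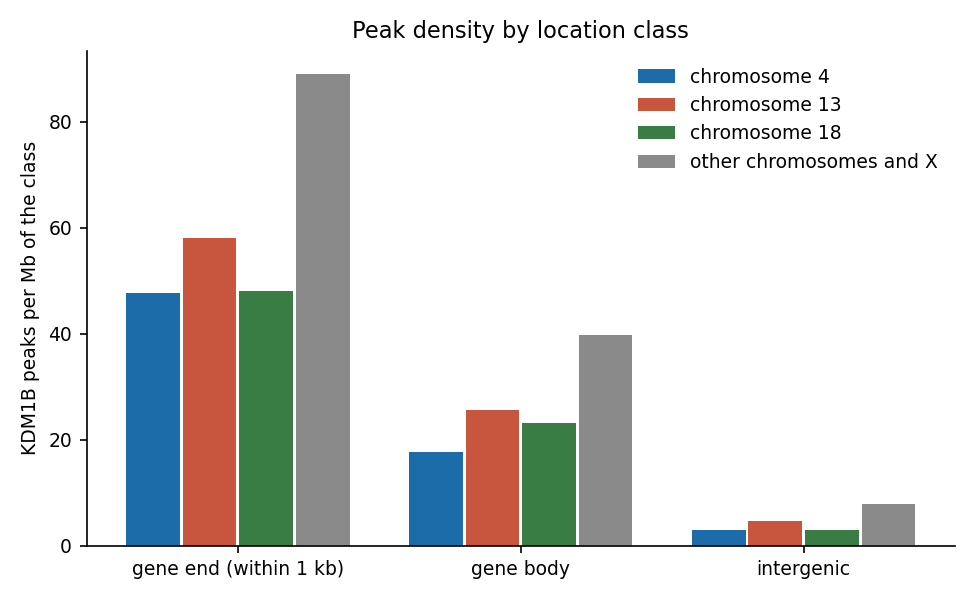
KDM1B peaks per Mb of sequence at gene ends (within 1 kb), in gene bodies and between genes, for chromosomes 4, 13 and 18 and for the other chromosomes with X. In each class the 3 chromosomes stand below the others, for example 17.7, 25.6 and 23.1 against 39.8 peaks per Mb in gene bodies.

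Among gene ends, starts and stops differed. Strand was taken from the promoter table for 1001 of the 1125 coding genes of 10 kb or more. A peak midpoint lay within 1 kb of the start of 351 genes, or 35.1% (32.1 to 38.1%), against 39.0% over all chromosomes. It lay within 1 kb of the stop end of 78 genes, or 7.79% (6.21 to 9.63%), against 16.9% over all chromosomes. Chromosome 4 had stop-end peaks at 6.78% of its genes, chromosome 13 at 10.5% and chromosome 18 at 7.25%, while the other chromosomes had 17.7% (17.0 to 18.5%). The share at starts was 39.4% there (38.4 to 40.3%). Both ends carried a peak in 39 genes and neither in 611.

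The ratios of these peaks lay in the middle to upper part of the range over chromosomes. Their median log2 ratio was 3.14 (quartiles 2.70 and 3.72), a linear ratio of 8.81, against 2.96 (2.57 and 3.50) on the other chromosomes. The median was 3.14 on chromosome 4, 3.05 on chromosome 13 and 3.26 on chromosome 18, and the quartile ranges overlapped widely. In order of median, chromosomes 13, 4 and 18 stood at places 13, 14 and 18 of 23 from the lowest, and X, also poor in peaks, had the highest at 3.90. A log2 ratio above 4 was reached by 878 peaks (17.8%), against 12.7% over all chromosomes. Peak widths had a median of 765 bp against 808 bp, and 40 peaks (0.812%) were 5 kb or wider against 1.46% elsewhere.

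Many linear ratios were whole multiples of a common step of 2.64, a pattern that counts give where the input holds very few reads. Such peaks made up 16.0% here and 12.1% elsewhere, and without them the median log2 ratios were 3.03 and 2.89. The part of low input counts in the higher ratios was not tested. Over the 3 chromosomes pooled, intergenic peaks had the highest median, 3.40 (quartiles 2.85 and 4.25), with 27.4% whole multiples. Gene bodies had 3.17 with 15.0%, and gene ends 2.75 with 10.4%. On chromosome 13 alone the intergenic median was 3.03, below the 3.14 of its gene bodies.

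Peaks were unevenly spread along each chromosome, as on the others. The richest 10% of the 1 Mb windows held 49.5% of the peaks on chromosome 4, 44.4% on chromosome 13 and 43.0% on chromosome 18, while 57 of the 369 windows (15.4%) held none. On the other chromosomes the richest 10% held 42.6%, and 13.7% of the windows held none. On chromosome 4 the 5 Mb at the tip of the short arm held 462 peaks, 20.6% of the total on 2.63% of the span. Their density was 92.4 per Mb, beside 79.3 over the whole of chromosome 19, and the 73 coding genes there stood at 14.6 per Mb. The 5 Mb at the other tip of chromosome 4 held 33 peaks at 4.20 coding genes per Mb. On chromosome 13 the 5 Mb at the tip of the long arm held 341 peaks (21.6%), or 8.12 per coding gene, with a median log2 ratio of 3.67 against 2.86 between the outer 5 Mb zones. Chromosome 18 had 109 and 112 peaks in its outer 5 Mb zones, 9.79 and 10.1% of its peaks on 6.23% of its span each.

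**Figure D4:**
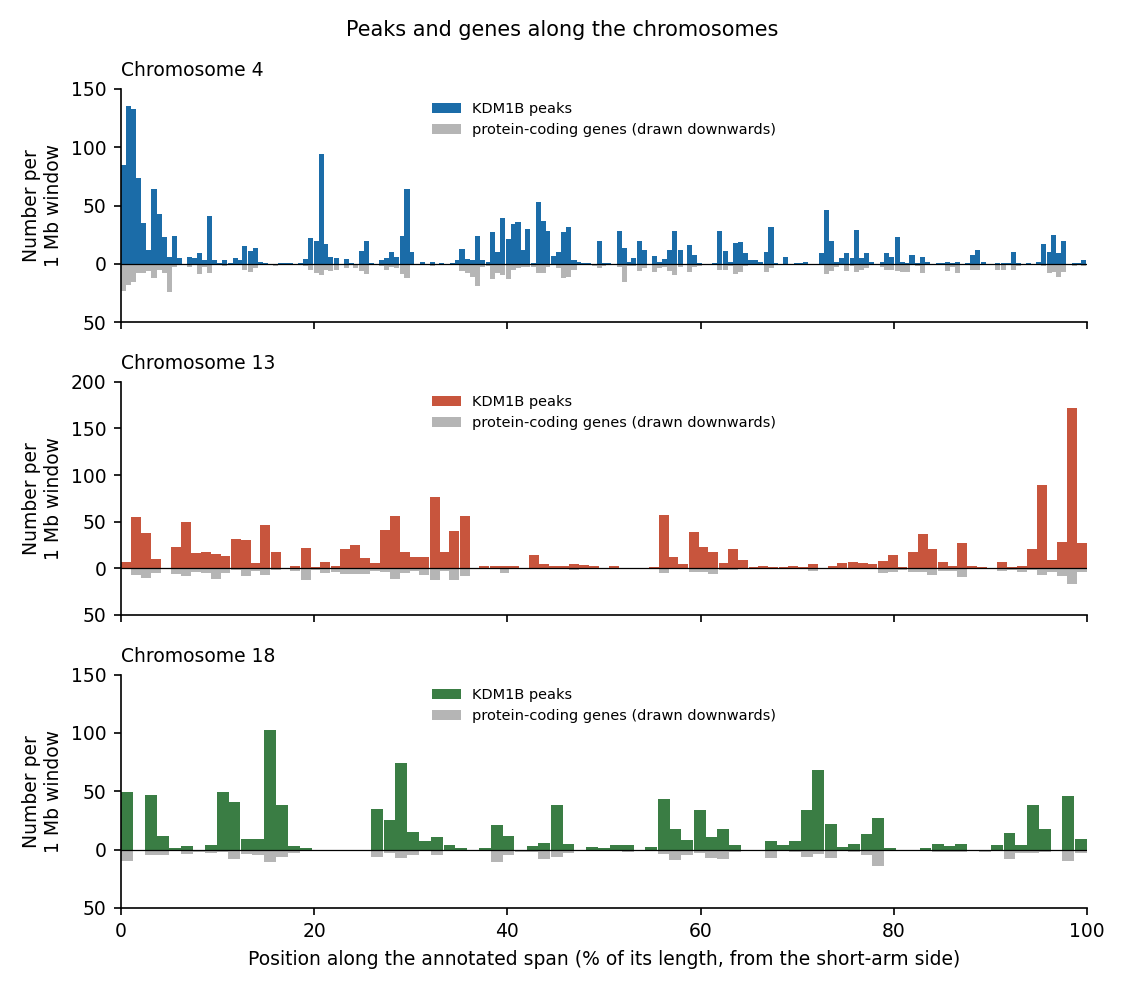
KDM1B peaks per 1 Mb window (coloured, upwards) and protein-coding genes per window (grey, downwards) along chromosomes 4, 13 and 18, with position as a percentage of the annotated span. Peaks crowd at the left tip of chromosome 4 (up to 135 in a window) and at the right tip of chromosome 13 (172 in a window), and chromosome 18 shows a wide empty stretch over its centromere.

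The single richest window of each chromosome lay in a gene-dense island, whose genes are named after their values were seen. On chromosome 13 it held 172 peaks, 10.9% of the chromosome, over 17 coding genes (chr13:113176737-114176737). These include CUL4A, a scaffold of cullin-RING ubiquitin ligases, LAMP1, a lysosomal membrane protein, the E2F partner TFDP1, and GAS6, the ligand of the TAM receptor kinases. On chromosome 4 it held 135 peaks over 18 coding genes (chr4:1011922-2011922), among them the corepressor CTBP1, the receptor kinase FGFR3 and the histone methyltransferase NSD2. The next window, with 133 peaks, lay directly beside it. On chromosome 18 it held 103 peaks over 11 coding genes (chr18:12011560-13011560), among them the mitochondrial protease AFG3L2, the phosphatase PTPN2 and the nucleoporin SEH1L.

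Runs of peaks with neighbours at most 10 kb apart were counted as clusters, and those of 10 or more peaks as large. There were 101 large clusters, 51 on chromosome 4, 27 on chromosome 13 and 23 on chromosome 18, with 1855 peaks or 37.6% of the peaks on 1.53% of the span. The other chromosomes had 52.8% of their peaks in such clusters and 7.33 of them per 10 Mb, against 2.75 here. Their median length was 47.7 kb here and 50.5 kb elsewhere. With only the stronger peaks of the list 34 large clusters were left, and with peaks within 1 kb joined 39. Peaks with no neighbour within 10 kb were 27.3% here and 15.8% elsewhere. All large clusters but 1 touched a coding gene, 56 of them exactly 1, and 1713 of their 1855 peaks (92.3%) had their midpoint inside one. Of all peaks on the 3 chromosomes 79.4% did so, and 79.5% on the others. The exception, named after its values were seen, was a run of 11 peaks over 39.0 kb on chromosome 4 (chr4:118597029-118636018).

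The clusters with the most peaks covered single long genes or small groups. On chromosome 4 the first had 54 peaks over 167 kb (chr4:2589930-2757335), with 46 midpoints in FAM193A and 5 in TNIP2, an inhibitor of NF-kB signalling. The next had 52 peaks over 200.4 kb, with 30 in NSD2, 12 in LETM1, a mitochondrial ion exchanger gene, 6 in the elongation factor gene NELFA and 1 in FGFR3. The third had 34 peaks over 82.6 kb, 32 of them in HTT. On chromosome 13 the first had 53 peaks over 168 kb, 47 of them in RASA3 and 3 in C13orf46. The next had 36 peaks, 35 of them in COL4A2, and the third had 32, all in PARP4. On chromosome 18 the first had 41 peaks over 130.3 kb, 17 in SEH1L and 23 in CEP192, a scaffold of centrosome maturation. It was followed by runs of 35 peaks in EPG5 and of 32 peaks, 31 of them in MTCL1.

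Median ratios differed between clusters, which also differed in size. On chromosome 13 the run over RASA3 had a median log2 ratio of 3.83 and that over COL4A2 of 3.60. The run over MZT1, BORA, DIS3 and PIBF1, with 31 peaks, had 2.47, and that over VPS36 and CKAP2, with 26 peaks, had 2.45. These last 2 runs stand outside the naming rule and were chosen after their values were seen. The 10 large clusters in the last 5 Mb of chromosome 13 had medians of 3.26 to 3.94, and the 14 between the outer zones of 2.45 to 4.10, so the ranges overlapped. On chromosome 4 the 15 large clusters of the short-arm tip ran from 2.62 to 3.40 and the 35 between the outer zones from 2.72 to 3.78.

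Genes with many peaks made up a share close to that over all chromosomes. Of 1367 coding genes, 124 (9.07%) had 10 or more midpoints inside, against 10.0% over all chromosomes, and together they held 2103 peaks, 42.7% of those on the 3 chromosomes, close to the 44.2% in such genes on the others. With only the stronger peaks 51 genes reached 10 midpoints, and with peaks joined 59. The 124 were 56 genes on chromosome 4, 40 on chromosome 13 and 28 on chromosome 18. Genes with at least 1 midpoint inside had a median of 3 peaks both here and elsewhere. Per length they had a median of 5.23 per 100 kb (quartiles 1.90 and 14.7) against 12.5 (4.05 and 27.5) on the other chromosomes.

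On chromosome 4 the gene with most peaks was HTT, which encodes huntingtin, with 53 midpoints in 169 kb or 31.3 per 100 kb. Their log2 ratios ran from 2.2 to 4.27 with a median of 2.99, and their summed widths came to 41.3% of the gene length. FAM193A followed with 50, then PDS5A, a regulator of cohesin, with 41 and NSD2 with 30. Summed peak width relative to gene length was largest in NSD2 among these, at 69.0%. This counts the whole of a single peak of 24.1 kb that runs from the gene into NELFA (log2 ratio 3.74). The covered share of NSD2 itself is therefore lower. WDFY3, which encodes a large autophagy adaptor, held 24 peaks in 297 kb, or 8.08 per 100 kb. Of these, 17 lay in 1 run of 68.0 kb, and the longest distance between neighbouring midpoints was 106 kb.

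On chromosome 13 RASA3, a GTPase-activating protein for Ras, held 47 peaks in 155 kb in 1 unbroken run, with a median log2 ratio of 3.89 and a highest of 6.26. COL4A2, a chain of basement membrane collagen, held 41 in 206 kb, 6 before the midpoint of the gene in its direction of transcription and 35 after it. PARP4, a mono-ADP-ribosyltransferase of vault particles, held 32, whose summed widths came to 58.1% of its length. DOCK9, an exchange factor for Cdc42, held 27 with a median of 3.99, and 23 of them lay after its midpoint. STARD13, a GTPase-activating protein, also held 27, of which 25 lay after its midpoint.

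On chromosome 18 NEDD4L, a ubiquitin ligase of membrane channels, held 40 peaks, 8 before and 32 after its midpoint, and 25 of them formed 1 run of 80.3 kb. EPG5, an autophagy tether, held 39, and MTCL1, a microtubule crosslinker, held 38, split 17 and 21 around its midpoint. CEP192 held 32, split 15 and 17. NPC1, the cholesterol exporter of late endosomes, held 26 in 1 run, whose summed widths came to 66.1% of its length. RASA3, PARP4, NSD2 and NPC1 each held all their peaks in 1 run. Of the 12 leading genes with a known strand, 10 held more peaks after the gene's midpoint than before it, among them HTT (20 before and 33 after), FAM193A (18 and 32), PDS5A (19 and 22) and RASA3 (22 and 25). NSD2 (17 and 13) and NPC1 (14 and 12) held more before it. Several of these splits were near even. The genes were chosen for having the most peaks, and the split was not counted over other genes. No lean of peaks towards either part of genes can therefore be read from these counts.

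**Figure D5:**
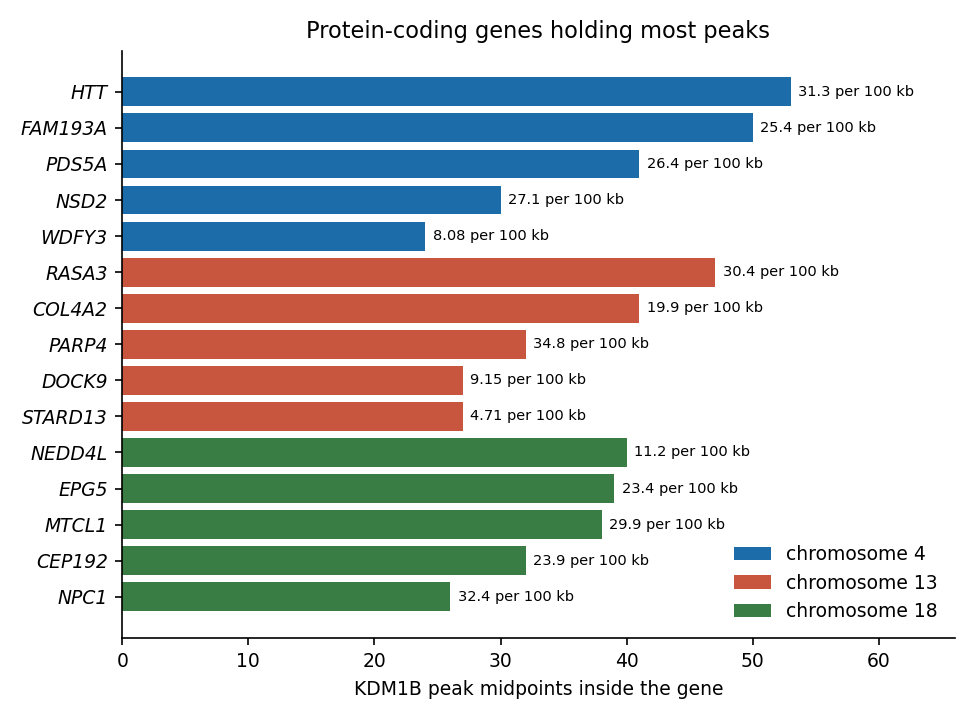
Number of KDM1B peak midpoints inside the 5 protein-coding genes with most peaks on each of chromosomes 4, 13 and 18 (bars), with peaks per 100 kb of gene beside each bar. HTT has 53, RASA3 47 and NEDD4L 40, while the counts per 100 kb run from 4.71 in STARD13 to 34.8 in PARP4.

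The peaks with the highest ratios are given next. On chromosome 4 the highest log2 ratio, 6.26, belonged to a peak of 771 bp in the lncRNA LINC01396, 10.6 kb from MSX1, a homeobox gene (chr4:4848640-4849411). An intergenic peak 53.0 kb from PDE5A, a cyclic GMP phosphodiesterase, had 6.10. One 2.64 kb from MXD4, an antagonist of the MYC network, had 6.05, as had a peak 163 kb from WDFY3. On chromosome 13 the highest lay in COL4A2 (6.31, chr13:110479512-110480231), then in the drug and nucleotide exporter gene ABCC4 and in RASA3 (both 6.26). On chromosome 18 it lay in ZSCAN30, a zinc finger gene (6.31, chr18:35267003-35267847). The next were in NEDD4L and in CTDP1, which encodes a phosphatase acting on RNA polymerase II (both 6.26). Each of these peaks was at a whole multiple of the common step, at 25 to 30 steps. The step was itself chosen so that the strongest peaks of the whole list fall on it, so this adds no support.

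The widest peaks lay at the short-arm tip of chromosome 4. A peak of 26.4 kb with a log2 ratio of 3.86 lay in CTBP1 (chr4:1216299-1242716), and the peak of 24.1 kb at NSD2 and NELFA followed. On chromosome 13 the widest were 8.58 kb in SLC7A1, a cationic amino acid transporter (3.64), and 7.86 kb in PARP4 (3.31). On chromosome 18 they were 15.0 kb in NPC1 (3.58), with only its edge in RMC1, and 9.77 kb in CNDP2, a dipeptidase (3.69). One wide peak, named after its values were seen, was intergenic. It spanned 7.40 kb with a log2 ratio of 4.81 on chromosome 13 (chr13:18230643-18238041), 939 kb from the nearest coding gene, TUBA3C. This peak lies close to the lower edge of the annotated span, which starts at base 18176737. How well reads map there was not tested.

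Stretches of 1 Mb or more without a peak made up 123 Mb, 33.6% of the 3 chromosomes, in 69 stretches. Chromosome 4 had 43 of them over 38.4% of its span, chromosome 13 had 14 over 23% and chromosome 18 had 12 over 34.9%. The span of chromosome 13 starts only at base 18176737, and those of chromosomes 4 and 18 at 11922 and 11560. These shares therefore cover unlike parts of the chromosomes. Centromeres and assembly gaps were not set apart, so such sequence enters the shares as peak-free. On the other chromosomes 365 peak-free stretches of 1 Mb or more covered 27.9%. The stretches were poor in genes but not free of them. They held 119 whole coding genes, 8.71% of those on the 3 chromosomes, at 0.967 per Mb against 5.13 per Mb outside them, and 11 touched no coding gene at all. Such stretches were also gene-poor on the other chromosomes, with 6.61% of the coding genes, at 1.69 per Mb against 9.22 outside. On chromosomes 4, 13 and 18, the 2 peaks at the edges of each of the 9 longest stretches, 3 per chromosome, had log2 ratios of 2.45 to 5.79.

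The longest was 6.15 Mb on chromosome 18 (chr18:15198849-21346819), where the centromere lies, and 5.62 Mb of it held no annotated gene. ROCK1, a kinase that acts on the actin cytoskeleton, was the 1 whole coding gene in it, with 0 midpoints in 165 kb. The second on that chromosome, 3.11 Mb, held CDH7, CDH19 and DSEL, which are 2 cadherin genes and an epimerase of dermatan sulfate. The third, 2.96 Mb, held DCC, the netrin receptor gene of 1196 kb, and LOC124904304. On chromosome 13 the longest was 4.04 Mb (chr13:67827608-71865913), with KLHL1, a neuronal actin-binding protein, as its 1 whole coding gene and DACH1 partly inside. A stretch of 1.96 Mb held DAOA, and one of 1.53 Mb held NBEA, a neuronal trafficking gene, with MAB21L1. On chromosome 4 the longest was 3.14 Mb (chr4:170071517-173211041) around GALNTL6. It was followed by 3.11 Mb with PCDH7, a protocadherin, and LOC124900844. The third, 3.01 Mb, held the sulfotransferase gene NDST4, the myelin lipid enzyme gene UGT8, and TRAM1L1.

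Stretches without a peak could also hold gene clusters, and 2 are named here after their values were seen. A stretch of 1.14 Mb on chromosome 4 (chr4:69551249-70687612) held 22 whole coding genes, among them UGT2A1, SULT1B1, SULT1E1 and MUC7. All 10 genes of the casein and salivary protein list read below lie in it. Another of 1.91 Mb (chr4:45553744-47462876) held 5, with 4 subunit genes of the GABA-A receptor and COX7B2.

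Long genes without a peak stood beside long genes with a few. Of 37 coding genes of 500 kb or more, 12 had no midpoint inside or within 5 kb (25 or 67.6% had one, 95% interval 50.2 to 82.0%). On the other chromosomes 74.4% of 277 had one. Among the longest without were GALNTL6 (1228 kb) and MARCHF1 (860 kb) on chromosome 4. Those on chromosome 13 were NBEA (730 kb), FGF14 (692 kb) and MTUS2 (686 kb), and on chromosome 18 DCC (1196 kb), the urea transporter gene SLC14A2 (516 kb) and CCDC178 (504 kb). The density inside genes of 500 kb or more was 3.44 per Mb, against 71.0 in genes under 20 kb. On the other chromosomes it also fell with length, with 5.29 and 128 per Mb in the same order.

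A midpoint lay within 1 kb of either end in 500 coding genes, or 36.6%, against 42.1% over all chromosomes, and inside the gene in 771, or 56.4%, against 58.5%. At least 1 midpoint inside or within 5 kb was found for 862 of the 1367 coding genes, or 63.1% (60.4 to 65.6%), against 67.8% over all chromosomes. The share was 57.5% on chromosome 4 (53.9 to 61.1%), 73.2% on chromosome 13 (68.1 to 77.9%) and 66% on chromosome 18 (60 to 71.7%), so chromosome 13 lay above the value for all chromosomes and chromosome 4 below it. Pooled over the 3 chromosomes, short genes differed most from the others. Among genes under 20 kb, 41.9% of 389 had a peak here (36.9 to 47.0%) and 58.0% of 8463 elsewhere (56.9 to 59.0%). Chromosomes 4 and 18 had 38.2 and 37% in this class, while chromosome 13 had 53.6% (43.2 to 63.8%), an interval that holds the value elsewhere. At 100 to 200 kb the shares were 75.1 and 79.5%, and at 200 to 500 kb 76.9 and 73.1%, with overlapping intervals. Gene length therefore moves with the count of genes with a peak, and its part in the gene lists below was not tested.

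A total of 18 lists of genes that lie on these chromosomes were then read, with 152 of 153 symbols matched and 64 of the 152 genes having a midpoint inside or within 5 kb, against 63.1% of all coding genes on these chromosomes and 67.8% of those on all. Chromatin and DNA methylation genes had a peak in 16 of 18 (median length 50.6 kb, median 3.5 midpoints inside), against 67.8% of all coding genes. NSD2 led with 30 midpoints, then SMCHD1, an architectural protein of the inactive X chromosome, with 23, the remodeller SMARCAD1 with 10 and the remodeller SMARCA5 with 7. MBD1 and CXXC1, CpG-binding proteins encoded side by side on chromosome 18, held 7 and 3 midpoints. TET2, a methylcytosine dioxygenase, held 2 in 134 kb, and HMGB2 and SAP30 had none.

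Replication, repair and cell cycle genes had a peak in 19 of 25 matched members (median length 58.9 kb), against 67.8% of all coding genes. Among all genes of 50 to 100 kb on these chromosomes the share was 73.7%, so the count is close to that of genes of such length. CUL4A had 22 midpoints inside, RBBP8, an end-resection factor, 18, TFDP1 17 and the cohesin acetyltransferase gene ESCO1 16. CDC16, a subunit of the anaphase-promoting complex, had 13 and BRCA2 12. RB1, the retinoblastoma protein gene, had 5 in 178 kb. LIG4, CCNA1, POLI, NEIL3, CDK8 and SKA1 had none. The list also holds DCLK1, a microtubule-associated kinase outside its theme, with 2.

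The 4 type IV collagen and laminin genes (median length 191 kb) all had peaks, against 67.8% of all coding genes. Among genes of 100 to 200 kb on these chromosomes the share was 75.1%. COL4A2 held 41 midpoints, the neighbouring COL4A1 and LAMA3 held 11 each, and LAMA1 held 2. COL4A1 had a highest log2 ratio of 6.05, and the median around LAMA1 was 2.72. SMAD genes had a peak in 4 of 5 (median length 76.0 kb). Among all genes of 50 to 100 kb on these chromosomes the share was 73.7%. SMAD7, the inhibitory SMAD, held 5 midpoints, and SMAD1, SMAD2 and SMAD4 held 1 each. SMAD9 had none.

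Several clusters of genes known for expression in few tissues had few peaks or none. They lie on chromosome 4, where 57.5% of all coding genes had a peak in or within 5 kb. Among its genes under 20 kb the share was 38.2%, at 20 to 50 kb 59.8%, and at 100 to 200 kb 70.9%. None of the 9 liver-secreted protein genes on chromosome 4 (albumin and fibrinogen genes among them, median length 20 kb) had a peak in or within 5 kb. None of the 10 casein and salivary protein genes (13.6 kb) and none of the 4 GABA-A receptor genes (118 kb) had one either. The UGT2 cluster had 1 of 9, UGT2B7 with 1 midpoint at 2.51. The alcohol dehydrogenase cluster had 1 of 7. This was ADH5, the glutathione-dependent formaldehyde dehydrogenase, known to be made in most tissues, with 5 midpoints in 17.8 kb and a median log2 ratio of 2.82.

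Among cytokine and growth factor genes of chromosome 4, 2 of 13 in the CXC chemokine cluster had a peak, CXCL1 (2.78) and CXCL2 (2.59), both neutrophil chemokines. CXCL8, CXCL9, CXCL10 and CXCL11 had none, and the median length of the list was 2.16 kb. Of all coding genes under 20 kb on chromosome 4, 38.2% had a peak. EREG and AREG, ligands of the EGF receptor, had peaks at up to 3.19 and 2.60, while BTC, EPGN and EGF had none. Of the 5 Toll-like receptor genes, TLR6 had a peak, at 1.71. The list of class III and V receptor tyrosine kinase genes holds KDR, PDGFRA and KIT of chromosome 4 and FLT1 and FLT3 of chromosome 13. KDR (4.79), PDGFRA (up to 3.50) and FLT1 (up to 3.18) had 1 or 2 midpoints inside, and KIT and FLT3 had none. Over the 3 chromosomes, 63.1% of all coding genes had a peak in or within 5 kb.

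Of the remaining lists, the desmosomal cadherin cluster had 1 of 7, DSG2, the desmoglein of simple epithelia, with 2 midpoints inside. Of the 4 classical cadherin genes of chromosome 18 (median length 181 kb), CDH2, which encodes N-cadherin, had 3 midpoints in 244 kb, up to 5.57. CDH7, CDH19 and CDH20 had none. Of 7 delta protocadherin genes (median length 59.3 kb) PCDH20 (2.99) and PCDH9 (2.08) had 1 peak each in or within 5 kb. Over the 3 chromosomes 63.1% of all coding genes had one, and 73.7% of those of 50 to 100 kb. The SERPINB cluster of chromosome 18 (median length 24.9 kb) had a peak in 4 of 10, at SERPINB2 (4.40), SERPINB5 (4.34), SERPINB8 (3.89) and SERPINB12 (3.79), 1 midpoint each. Of the SLITRK and glypican genes GPC5 held 8 midpoints in 1469 kb and GPC6 held 5 in 1191 kb. SLITRK5 held 3 in 8.25 kb, and SLITRK1 and SLITRK6 had none. On chromosome 13, where these genes lie, 73.2% of all coding genes had a peak in or within 5 kb. Among its genes under 20 kb the share was 53.6%, and at 500 kb and over 76.9%.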

How the data were processed

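The authors deposited 1 peak list with a log2 ratio of ChIP over input per peak. Per the submitters' processing notes, tools included Trim Galore 0.4.5 and Bowtie2 2.2.9, and the build was hg38. The peak caller and thresholds were not given in the sources used here. No header names the value: it was read as this ratio from the name of the deposited list and the design of the series. Whole multiples of the step of 2.64 were taken to a tolerance of 1e-06. Coordinates are printed as deposited, and whether starts count from 0 or 1 is unknown.

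Genes and promoter windows came from RefSeq tables of GRCh38.p14, with 19817 coding and 17904 lncRNA genes; 679 rows listed out of order, on scaffolds, were left out. The span of a chromosome runs from its first to its last gene or peak. Peaks were placed by midpoint. A gene end is within 1 kb of either end. Intervals at 95% were exact (Clopper-Pearson for shares, Poisson for densities). Placement, clusters and gaps were tested on simulated data. The chromosomes, lists and definitions were chosen with earlier results of these data known. Comparisons of starts and stop ends, start windows without a peak, outer zones and windows of equal gene number were added after the data were seen. Genes were named by rank: per chromosome the 5 with most midpoints, those under the 3 largest clusters and in the 3 longest empty stretches, the 3 strongest and 2 widest peaks, the 3 longest genes without a peak, and list members. An item that falls under this rule is not reported here. Python 3.11.15 with scipy 1.17.1 was used.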

Additional observations from a re-analysis of the deposited data

How the results depend on the processing

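No paired analysis was possible because each group held 1 library. With only the stronger peaks (at or above the median ratio of the list) the 3 chromosomes had 7.89 peaks per Mb after 13.4, 8.54% at gene ends after 13%, 77.1% in gene bodies after 74.8%, 14.4% intergenic after 12.2%, 34 large clusters after 101, and 51 genes with 10 or more midpoints after 124. Joining peaks within 1 kb gave 10.1 per Mb, 14.5, 70.1 and 15.3% in the 3 classes, 39 large clusters and 59 such genes. In both cases fewer peaks enter. The classes moved to 8.85% at gene ends and 78.1% in gene bodies with ends of 500 bp, to 31.5, 59.3 and 9.11% (intergenic) with 5 kb, to 15.9 and 72.4% with any overlap, and to 10.7, 72.6 and 16.7% (intergenic) with coding genes only. Empty stretches numbered 17 at 2 Mb and 172 at 500 kb, after 69. Without whole multiples the median log2 ratio was 3.03 after 3.14 and the median width 807 bp after 765 bp. The counts of genes and list members with a peak, and of clusters at 5 or 20 kb, stayed within 1.5 times. The density of the 3 chromosomes was 0.474 of that of the others with all peaks, 0.562 with the stronger ones, 0.529 when joined and 0.453 without whole multiples. The intergenic share lay above that of the others with all peaks (12.2 and 11.9%), and below it without whole multiples (10.6 and 11%). Depth is unknown, so peaks missed for want of reads cannot be told from sequence without KDM1B.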

Other observations

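The ratio was higher in isolated peaks when the 3 chromosomes were pooled. Peaks with a neighbour within 10 kb had a median log2 ratio of 3.09 (3583 peaks), those with the nearest at 10 to 100 kb 3.24 (1034 peaks), those at 100 to 500 kb 3.72 (264 peaks) and those over 500 kb away 3.88 (46 peaks). The share at whole multiples of the common step was 11.6, 24.4, 38.6 and 32.6% in the same order, and median widths were 832, 650, 593 and 612 bp. On the other chromosomes the medians were 2.92, 3.21, 3.60 and 4.03. Chromosome 13 differed from the other two in its isolated peaks. Its 74 peaks at 100 to 500 kb had a median of 3.11, against 3.72 for 140 on chromosome 4 and 4.21 for 50 on chromosome 18. Over 500 kb the medians were 2.99 for 11 peaks, 3.93 for 24 and 4.65 for 11 in the same order. These differences have no test, and their link with low input counts was not tested.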
